A study of Mus musculus with 6 samples.

Results

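The fibrillar collagens are the 10 genes of this family in a table of 750 tumour-related genes, taken by symbol: Col1a1, Col1a2, Col2a1, Col3a1, Col5a1, Col5a2, Col11a1, Col11a2, Col24a1 and Col27a1. They were measured in tumours that grew in female mice after 300000 4T1 cells, an established mouse mammary carcinoma line, had been placed in the left mammary fat pad, a model called CLDX in the labels. Treatment began 2 weeks later, with 3 tumours from mice given extracts of a Thai traditional formulary medicine (TTFM) and 3 from mice labelled Saline. Strain, age, dose and extract composition were not stated in the labels. The titles number the tumours within each group without tying each to its own mouse, so the p-values speak only to the spread between samples, part of which may be technical.

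Fibrillar collagens are secreted as procollagen trimers with a long, uninterrupted triple helix, and after the propeptides are trimmed they pack into the striated fibrils of connective tissue. Types I and III form the bulk of fibrils in soft tissue, while the minor types V and XI join the same fibrils and set their nucleation and diameter. Type II is the fibril collagen of cartilage, and types XXIV and XXVII are later-described relatives with a shorter helix. In solid tumours most fibrillar collagen is usually attributed to fibroblasts. Both the 4T1 cells and the host are mouse, so RNA of tumour cells and of host stroma could not be separated here. In bulk tissue, fewer cells of a type and less RNA per cell cannot be told apart.

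Values are whole-number counts per gene, and a normalized count is the count scaled to a common library size with trimmed mean of M values (TMM) factors. Each tumour gave between 333515 and 449460 counts, and the lowest value in each was 1. Genes averaging 10 or more counts were tested, 627 in all, and the 10 fibrillar collagen genes were all among them. Uty, a Y-linked gene with no transcript in females, had 4 to 12 counts and marks the bottom of the range. Probe or primer efficiency is not known for any gene, so levels are compared between tumours and not between genes.

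The comparison asks how these genes differed with TTFM treatment. Type I, III and V collagen RNA differed far more between tumours within the Saline group than between the groups. In 7 of the 10 genes Saline replicate 2 was the highest of all tumours, as it was in 17.1% of tested genes, and in 7 Saline replicate 3 was the lowest, as in 23.9% of tested genes. All 3 TTFM tumours lay inside the Saline range in 7 of the 10, against 25.04% of tested genes. By edgeR's quasi-likelihood test 0 of the 10 genes passed an adjusted p of 0.05, against 0% of the 627 genes tested, and 0 had an unadjusted p under 0.05, against 6.06%. The groups failed to overlap in 0 of the 10, against 8.29%. Fold changes were above 0, higher in TTFM, for 6 genes and below 0 for 4, against 49.9% of tested genes above 0. Their median log2 fold change was 0.17, against -0.0014 over all tested genes. Over all genes the smallest adjusted p was 0.525. An unadjusted edgeR p under 0.05 was found for 38 genes, and DESeq2 called 1 gene past the adjusted threshold, not a fibrillar collagen. The genes of smallest p were Pias1 and Socs1 among those higher in TTFM and Il1b and Nkd1 among those lower. Nkd1 rested on 5 to 23 raw counts, which overlap those of Uty.

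**Figure D1:**
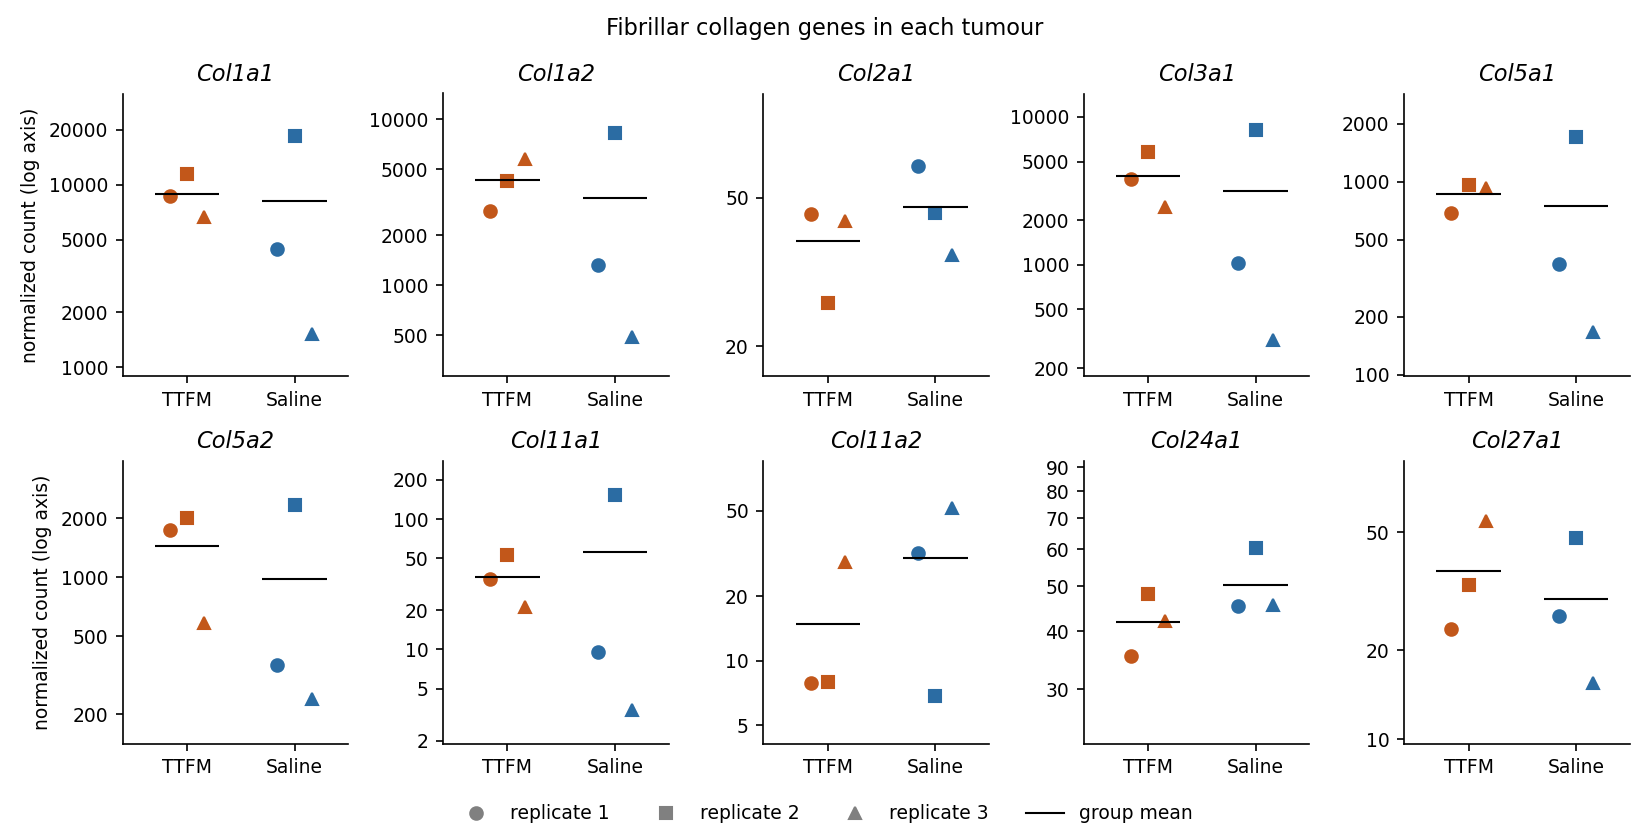
Normalized count (log axis) of each fibrillar collagen gene in the 3 TTFM and 3 Saline tumours. Points are tumours, with the marker giving the replicate number, and lines are arithmetic group means. In Col1a1 the Saline tumours spread over 12.3-fold and the TTFM tumours over 1.74-fold, while Col24a1 spread over 1.71-fold in all.

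Type I collagen is a trimer of chains encoded by Col1a1 and Col1a2. Col1a1 had 8646, 11537 and 6644 normalized counts in TTFM replicates 1 to 3, against 4437, 18645 and 1516 in Saline replicates 1 to 3. The TTFM tumours were close together and lay between the high Saline replicate 2 and the other Saline tumours. Its means were 8942 ± 2460.3 in TTFM and 8199 ± 9163 in Saline tumours (SD, n = 3 each), for a log2 fold change of 0.13 (SE 0.79, edgeR adjusted p = 0.974). Col1a2 had 2809, 4266 and 5803 normalized counts in TTFM, against 1325, 8299 and 490.3 in Saline tumours. Here TTFM replicate 3 was the highest of its group, whereas for Col1a1 it was the lowest. Col1a2 stood at a log2 fold change of 0.35 (SE 0.90, edgeR adjusted p = 0.962).

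Col3a1 encodes the single chain of type III collagen, which mixes with type I in extensible tissue and granulation tissue. It had 3784, 5802 and 2449 normalized counts in TTFM tumours, against 1038, 8162 and 313 in Saline tumours. Saline replicates 1 and 3 again lay below every TTFM tumour and Saline replicate 2 above them. The Saline values differed by 26.1-fold between highest and lowest and the TTFM values by 2.37-fold. Its means were 4012 ± 1688 in TTFM and 3171 ± 4338 in Saline tumours (SD, n = 3 each), with a log2 fold change of 0.34 (SE 1.00).

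Col5a1 and Col5a2 encode chains of type V collagen, which initiates fibrils of type I. Col5a1 had 689, 965 and 929 normalized counts in TTFM tumours, a 1.40-fold range, against 375, 1702 and 166 in Saline tumours, a 10.3-fold range. Col5a2 had 1737, 2009 and 584 in TTFM, against 356, 2324 and 238 in Saline tumours. Saline replicate 2 was highest and Saline replicate 3 lowest in both genes, and TTFM replicate 3 stood well below the other TTFM tumours in Col5a2, not in Col5a1. The log2 fold changes were 0.21 (SE 0.73) for Col5a1 and 0.57 (SE 0.86) for Col5a2.

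Type XI collagen is best known from cartilage, where it sits in the core of type II fibrils, and Col11a1 is also transcribed by activated fibroblasts of carcinomas. Col11a1 had 34.4, 53.1 and 21.1 normalized counts in TTFM tumours, against 9.63, 154 and 3.43 in Saline tumours. It ranked the tumours as Col1a1 did, from Saline replicate 2 through TTFM replicates 2, 1 and 3 to Saline replicates 1 and 3. That order was found in 4 of the 10 fibrillar genes (Col1a1, Col3a1, Col5a2 and Col11a1) and in 11 of all 627 tested genes. The 44.7-fold range of Col11a1 was the widest of any tested gene, but its low end is at the level of Uty, with 4 counts in Saline replicate 3 (exact 95% Poisson interval 1.09 to 10.2, counting error only) and 10 in Saline replicate 1. Its log2 fold change was -0.59 (SE 1.15), from means of 36.2 ± 16.1 in TTFM and 55.5 ± 84.9 in Saline tumours (SD, n = 3 each).

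Col11a2, which encodes a partner chain of Col11a1 in type XI collagen, ran the other way. It had 7.86, 8.01 and 28.9 normalized counts in TTFM tumours, against 31.8, 6.82 and 51.5 in Saline tumours. The 3 tumours with the most Col11a2 (Saline replicates 3 and 1 and TTFM replicate 3) were the 3 with the least Col11a1. Counts behind the low values were 8, 8 and 6, at the level of Uty, and the exact 95% Poisson interval of 6 counts in Saline replicate 2 was 2.20 to 13.1, against 45.8 to 77.2 for the 60 counts in Saline replicate 3. The log2 fold change of Col11a2 was -1.04 (SE 0.76, edgeR adjusted p = 0.938), the fibrillar gene of smallest p and 135th in p among the 627 genes.

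The remaining members ranged over 2.33-fold (Col2a1), 1.71-fold (Col24a1) and 3.52-fold (Col27a1) in the 6 tumours, against a median of 2.06-fold for a tested gene. Col2a1, the type II collagen gene of cartilage, had 45.2, 26.0 and 43.3 normalized counts in TTFM tumours, against 60.7, 45.5 and 35.2 in Saline tumours. Col24a1, which encodes a fibrillar chain described in developing bone and cornea, had 35.3, 48.1 and 42.2 in TTFM, against 45.3, 60.3 and 45.5 in Saline tumours. The groups overlapped in both genes, and neither separated Saline replicate 3 from the rest. Col27a1, expressed in developing cartilage, had 23.6, 33.1 and 54.4 in TTFM, against 26.0, 47.8 and 15.5 in Saline tumours, with TTFM replicate 3 highest of all. Log2 fold changes were -0.30 (SE 0.36) for Col2a1, -0.26 (SE 0.29) for Col24a1 and 0.32 (SE 0.50) for Col27a1. Their raw counts lay between 18 and 63, above those of Uty but low enough for counting error to matter.

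**Figure D2:**
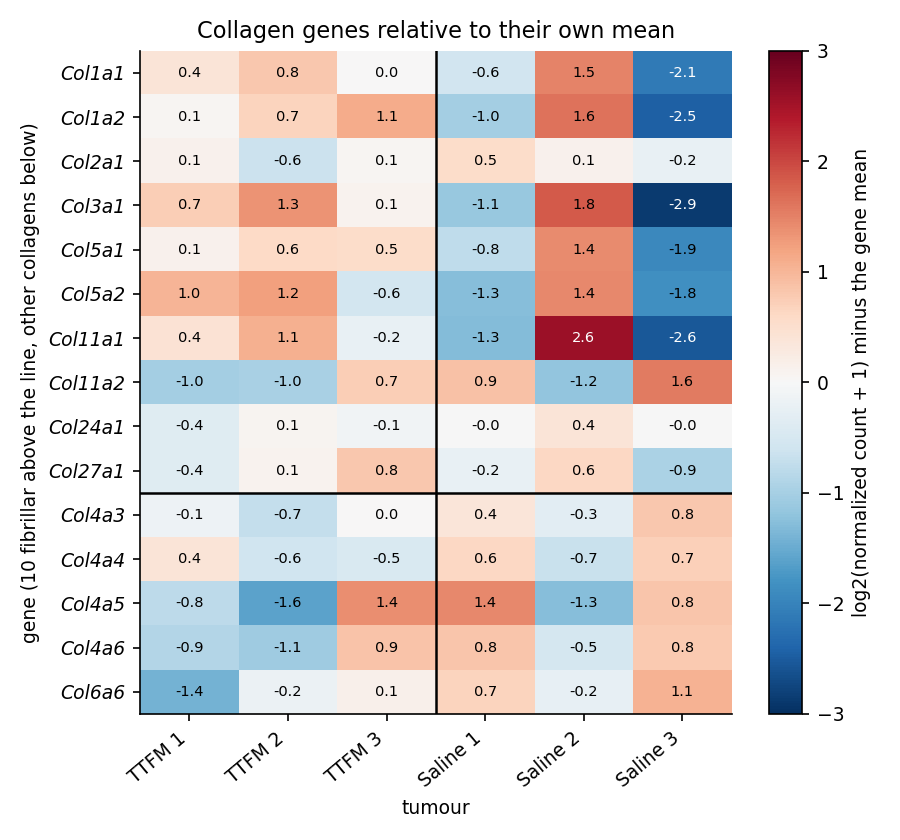
Log2(normalized count + 1) minus the gene's mean over the tumours, for the 10 fibrillar collagen genes (above the line) and the 5 other collagen genes on the panel (below it), with TTFM tumours left of Saline tumours. Col1a1 to Col11a1, apart from Col2a1, are red in Saline replicate 2 and blue in Saline replicates 1 and 3. Col11a2 and all 5 other collagen genes have the opposite signs in those tumours, some of them faintly.

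Together the 10 genes held 4.26%, 5.50% and 4.48% of all counts in TTFM replicates 1 to 3, against 2.00%, 8.60% and 0.791% in Saline replicates 1 to 3. The TTFM shares fell inside the Saline range. On the log2 scale the SD of Col1a1 was 0.40 in TTFM and 1.82 in Saline tumours, that of Col3a1 0.62 in TTFM and 2.38 in Saline, and that of Col5a1 0.27 in TTFM and 1.70 in Saline tumours. The Saline SD was the larger in 9 of the 10 genes, all but Col2a1, against 56.8% of tested genes. The difference in spread was not tested. Of tested genes, 20 had a range over the tumours at least as wide as the 9.77-fold of Col5a2, and these included Col1a1, Col1a2, Col3a1, Col5a1 and Col11a1.

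The fold changes of types I, III and V and of Col11a1 moved most when Saline replicate 2 was left out. Without it the sign of Col11a1 turned. The signs of Col1a1, Col1a2, Col3a1 and Col5a1 turned without Saline replicate 1 and without Saline replicate 3. Those of Col1a1 and Col3a1 also turned without TTFM replicate 2. edgeR fits mean counts, which Saline replicate 2 dominates in its group, whereas limma averages log2 values. By limma the values were 0.80 for Col1a1, 1.23 for Col1a2, 1.45 for Col3a1 and 0.85 for Col11a1, none past the threshold. Without Saline replicate 2 the log2 fold changes were 1.59 for Col1a1, 2.25 for Col1a2 and 2.57 for Col3a1. They were 1.68 for Col5a1, 2.28 for Col5a2 and 2.48 for Col11a1. Saline replicate 2 was the highest tumour in each of these genes, so leaving it out raised their fold changes by construction. Col11a2 then stood at -1.50. In that fit the unadjusted p was under 0.05 for 7 of the 10, against 18.8% of 637 genes, and 0 passed the adjusted threshold, against 2.2% of genes. The lowest adjusted p of a fibrillar gene there was 0.0700 by edgeR, for Col1a2, Col3a1, Col5a1 and Col5a2. Over all settings and all 10 genes the adjusted p ran from 0.0700 to 0.999.

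**Figure D3:**
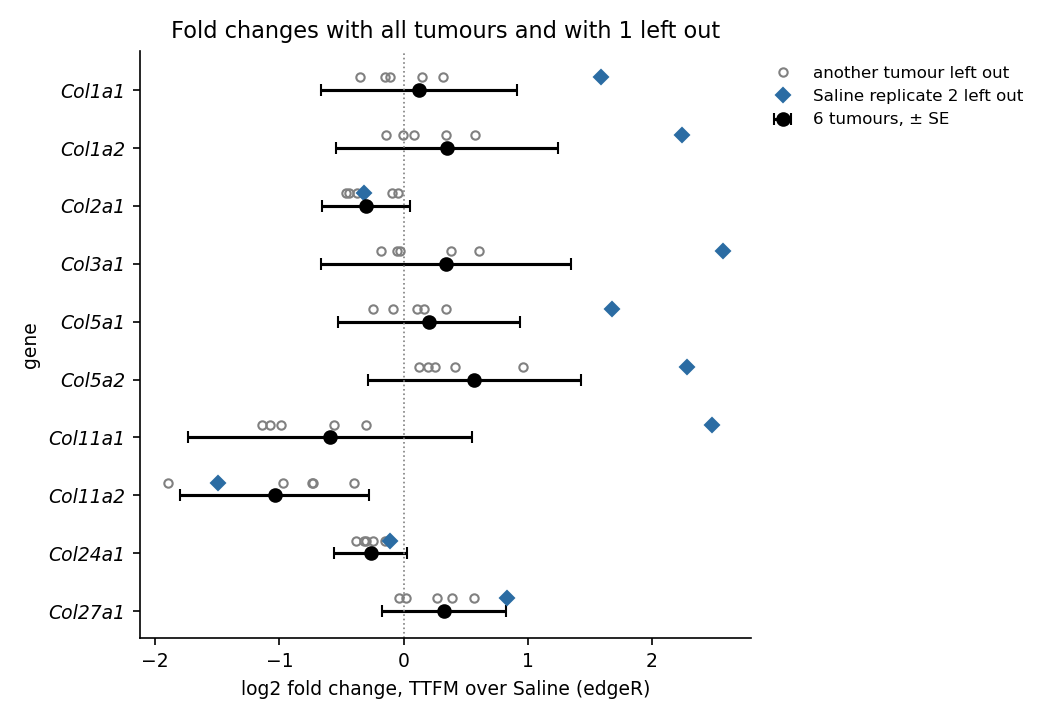
Log2 fold change (TTFM over Saline, edgeR) of each fibrillar collagen gene with all 6 tumours (black points, bars ± SE) and with 1 tumour left out (open circles, blue diamonds for Saline replicate 2). The diamonds of Col1a1, Col1a2, Col3a1, Col5a1, Col5a2 and Col11a1 lie between 1.59 and 2.57, to the right of every other value for those genes, and that of Col2a1 lies among the circles.

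Partner chains of 1 collagen type were compared within each tumour. Library scaling cancels in their ratio, but not fully in its log2 form, where 1 was added to each normalized count. The size of a ratio depends on how well each gene was captured, so only its change between tumours is read. The ratio of Col1a1 to Col1a2 was 3.08, 2.70 and 1.14 in TTFM tumours, against 3.35, 2.25 and 3.09 in Saline tumours, with TTFM replicate 3 lowest. The log2 ratio averaged 1.08 ± 0.78 in TTFM and 1.51 ± 0.30 in Saline tumours (SD, n = 3 each). Their difference was -0.43 with an SE of 0.48, and the two-sided exact permutation p was 0.5. The ratio of Col5a1 to Col5a2 was 0.397, 0.480 and 1.59 in TTFM, against 1.05, 0.732 and 0.697 in Saline tumours, with TTFM replicate 3 highest. Its log2 difference was -0.28 (SE 0.65, exact permutation p = 0.7). Without TTFM replicate 3 the type I difference was 0.016, and without TTFM replicate 1 the type V difference was 0.10.

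The log2 ratio of Col11a1 to Col11a2 was 2.00, 2.59 and -0.43 in TTFM tumours, against -1.62, 4.30 and -3.57 in Saline tumours. It spanned 7.87 log2 units over the 6 tumours, against 1.55 for the type I pair and 2.00 for the type V pair. The group means were 1.38 ± 1.60 in TTFM and -0.30 ± 4.10 in Saline tumours (SD, n = 3 each), a difference of 1.68 with an SE of 2.54 (two-sided exact permutation p = 0.6). Adjusted over the 3 pairs compared, p was 0.7 by the exact permutation test for each, and 3 tumours against 3 cannot go below 0.1. The type XI difference was 0.43 with raw counts under 20 raised to 20, 0.043 when Saline replicate 3 was left out and 3.98 when Saline replicate 2 was, the extremes over the tumours. The low ends of the type XI ratio rest on 4 to 10 counts. With a pseudocount of 0 in place of 1 the type XI difference was 1.85, and with 5 it was 1.24. These tests do not show that the ratios were alike in the groups.

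**Figure D4:**
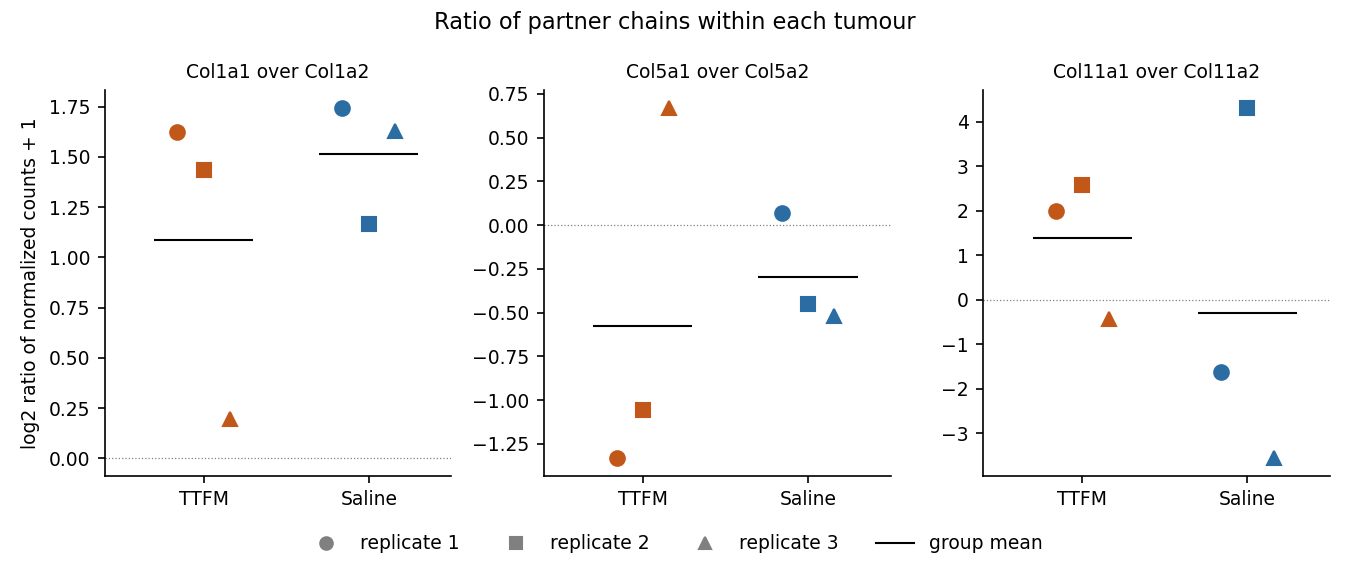
Log2 ratio of normalized counts (+ 1) of partner collagen chains in each tumour, TTFM left and Saline right. Points are tumours, with the marker giving the replicate number, and lines are group means. TTFM replicate 3 is the lowest point for type I and the highest for type V, and the type XI ratio runs from -3.57 to 4.30 within the Saline group.

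The sequence before the transcription start is shown for members whose levels moved together (Col1a2, Col3a1, Col5a1 and Col11a1) and for Col11a2, which moved opposite to Col11a1. RefSeq's promoter table (GRCm38.p6) matched 7 of the 10 members: Col1a2, Col3a1, Col5a1, Col11a1, Col11a2, Col24a1 and Col27a1. Each sequence holds the 150 bases before the annotated start on the gene's strand, and capitals mark each match to CCAAT or TATAAA on either strand, of which Col5a1 has none.
Col1a2, chr6:4505468-4505617, plus strand: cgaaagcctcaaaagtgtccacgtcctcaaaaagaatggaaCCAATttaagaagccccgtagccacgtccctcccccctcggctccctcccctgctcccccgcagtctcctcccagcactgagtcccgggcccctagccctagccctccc
Col3a1, chr1:45311388-45311537, plus strand: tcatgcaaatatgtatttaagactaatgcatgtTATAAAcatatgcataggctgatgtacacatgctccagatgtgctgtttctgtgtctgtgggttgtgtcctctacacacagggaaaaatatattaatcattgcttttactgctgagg
Col5a1, chr2:27886275-27886424, plus strand: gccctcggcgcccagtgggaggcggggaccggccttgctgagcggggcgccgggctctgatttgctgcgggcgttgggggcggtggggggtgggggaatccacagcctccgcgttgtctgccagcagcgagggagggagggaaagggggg
Col11a1, chr3:114030390-114030539, plus strand: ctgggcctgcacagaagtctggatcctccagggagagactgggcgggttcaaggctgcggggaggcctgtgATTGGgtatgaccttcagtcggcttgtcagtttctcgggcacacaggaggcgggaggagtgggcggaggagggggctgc
Col11a2, chr17:34038988-34039137, plus strand: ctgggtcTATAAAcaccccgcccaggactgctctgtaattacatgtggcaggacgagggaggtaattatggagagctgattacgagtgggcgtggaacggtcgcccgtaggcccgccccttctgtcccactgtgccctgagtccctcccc

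Both strands were searched for 4 short motifs in the same window of all 32851 promoters of that table. CCAAT, the box bound by NF-Y, was in 2 of the 7 matched members, Col1a2 and Col11a1, and in 24.5% of all windows. TATAAA was in 2 of 7, Col3a1 (bases -117 to -112 from the start) and Col11a2 (bases -143 to -138), and in 7.57% of windows. The search took no account of where in the window a match lay. GGGCGG, the GC box of Sp1, was in 4 of 7 (Col5a1, Col11a1, Col11a2 and Col27a1) and in 28.6% of windows. CAGAC, the SMAD box, was in 3 of 7 (Col3a1, Col5a1 and Col11a1) and in 27.7%. No match overlapped another. The G and C content of the printed windows was 62.7% for Col1a2, 37.3% for Col3a1, 74.7% for Col5a1, 64.7% for Col11a1 and 60.0% for Col11a2. A match is a description of letters only, and the genes shown were chosen for their levels.

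Among genes that are no fibrillar collagen, those nearest in pattern to the mean of Col1a1, Col1a2, Col3a1, Col5a1 and Col5a2 were ranked by the root mean square difference of centred log2 values over the 6 tumours. Tnc, which encodes the matrix glycoprotein tenascin C, was nearest, at 0.18 log2 units. It had 11861, 14005 and 9714 normalized counts in TTFM tumours, against 5634, 24093 and 1675 in Saline tumours. Next came Gas1, a membrane-anchored Hedgehog co-receptor (0.33), Creb3l1, a transcription factor anchored in the endoplasmic reticulum (0.46), and Fst, the activin-binding follistatin (0.46). The signalling genes Wnt5a (0.49), Il11 (0.52) and Wnt2b (0.59) and the glutamate receptor subunit gene Gria3 (0.59) completed the 8 nearest, while the median over 617 candidate genes was 1.31. Il11 lay near the level of Uty in part of the tumours, with 1.72 normalized counts in Saline replicate 3.

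**Figure D5:**
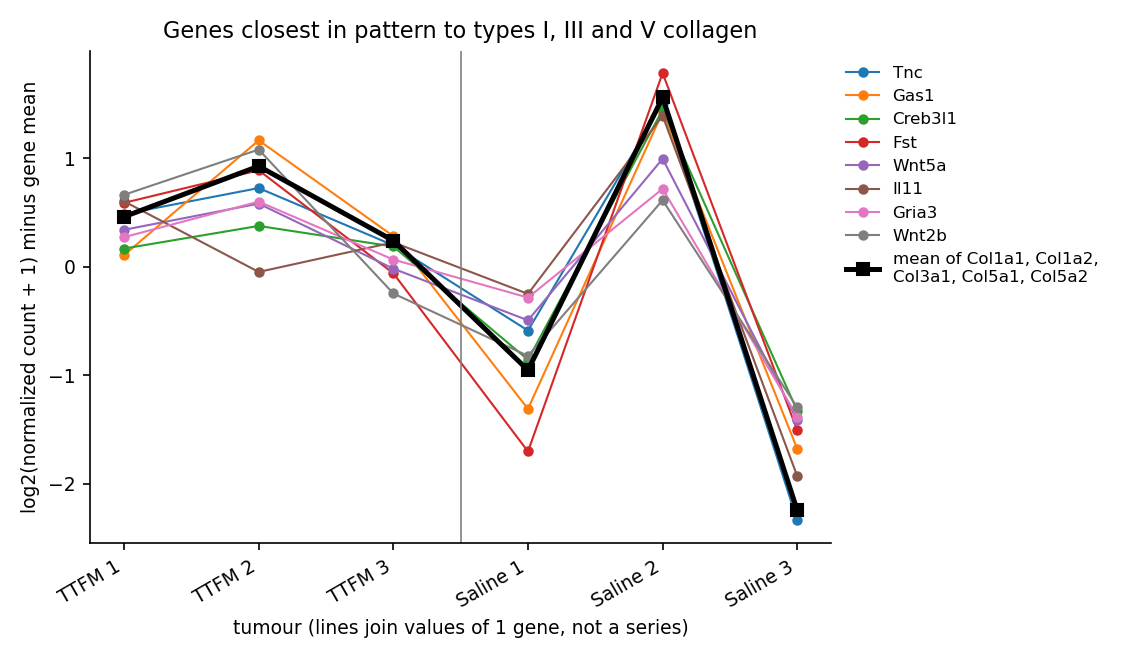
Log2(normalized count + 1) minus the gene mean in each tumour, for the mean of Col1a1, Col1a2, Col3a1, Col5a1 and Col5a2 (black squares) and the 8 tested genes nearest to it. The lines are highest in Saline replicate 2, except that of Wnt2b, which is highest in TTFM replicate 2, and lowest in Saline replicate 3, except that of Fst, which is lowest in Saline replicate 1.

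Nearest to Col11a1 were Fst (0.57), Tnc (0.57) and Gas1 (0.64). Among the nearest to Col11a2 were Rasgrp2, a Rap guanine nucleotide exchange factor (0.37), and Irak2, a kinase of interleukin-1 and Toll-like receptor signalling (0.39). Irak2 had 136, 150.3 and 283 normalized counts in TTFM tumours, against 629.8, 158 and 617 in Saline tumours. Thus Irak2, like Col11a2, was low in Saline replicate 2. For the remaining members the nearest were the growth factor gene Vegfc for Col2a1 (0.18), Tcf3 for Col24a1 (0.16) and the phosphatase gene Dusp2 for Col27a1 (0.065). The median of 1.31 was taken against types I, III and V and is no measure for these members. Any 2 genes that vary little have a small difference, and Col24a1 ranged over only 1.71-fold. Tcf3 had only 9.99 to 17.1 normalized counts.

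The panel held 5 of 24 other collagen genes listed, and 3 were tested, all below 0 with 0 past the test and a median log2 fold change of -0.56. Col4a5, which encodes a basement membrane chain of type IV collagen, had 30.4, 17.0 and 142 normalized counts in TTFM tumours, against 147, 21.6 and 96.2 in Saline tumours. It was high in the 3 tumours that were high in Col11a2. Col4a6 had 6.87, 6.01 and 25.5 in TTFM, against 25.04, 9.10 and 24.0 in Saline tumours, again with those tumours highest. Col4a4 stood at -0.56 (SE 0.49), and Col4a3 and Col6a6 fell under the mean count of 10. None of the 21 listed genes for collagen biosynthesis and crosslinking was on the panel.

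Of collagen receptors the panel held 1 of 9, Itga2, the integrin alpha chain that binds fibrillar collagen. It had 472, 539 and 179.8 normalized counts in TTFM tumours, against 209.9, 540.2 and 151 in Saline tumours. Of 14 matrix protease and inhibitor genes listed, 4 were tested, all above 0 with 0 past the test (median log2 fold change 0.31). Mmp9, a gelatinase that cleaves denatured collagen, had 5082, 4689 and 996 in TTFM, against 1164, 5510 and 468 in Saline tumours. In Itga2 and Mmp9 TTFM replicate 3 lay between Saline replicates 1 and 3, whereas for Col5a2 it lay above both. Mmp3 (stromelysin 1), Plau and Plat (plasminogen activators) stood at 0.25, 0.29 and 0.33 on the log2 scale.

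Non-collagen matrix proteins had 14 tested genes, 8 above 0 and 6 below, with 0 past the test and a median of 0.080. Fn1 (fibronectin), which is needed for type I fibril assembly by cultured cells, did not follow the collagens. It had 18362, 26308 and 30347.5 normalized counts in TTFM tumours, against 28711, 21184 and 29185 in Saline tumours. Of these 14 genes, 1 had an unadjusted p under 0.05, against 6.06% of tested genes. It was Thbs1 (thrombospondin 1, log2 fold change -0.99, SE 0.28, edgeR adjusted p = 0.525). Tnn stood at 0.67, Tnr at -1.02 and Lama5 at -0.30. Inputs to collagen transcription from TGF-beta and PDGF had 16 tested genes, 11 above 0 and 5 below, with 0 past the test and a median of 0.062. Tgfb1, the growth factor best known to induce type I collagen, had 1146, 1321 and 979 in TTFM, against 939.9, 1526 and 638 in Saline tumours, a 2.39-fold range in the order of Col1a1. Tgfb3, a related ligand, had 528, 613 and 967 in TTFM, against 899, 580 and 600.2 in Saline tumours, in another order. The receptor genes Tgfbr1 and Tgfbr2 ranged over 1.28-fold and 1.22-fold. Smad3, a transducer of that signal, stood at -0.58 (SE 0.29), Pdgfd at -0.53, Smad2 at 0.43 and Smad4 at 0.23.

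Cell type markers were thinly covered. Fibroblast and pericyte markers on the panel were 2 of 12 listed, Pdgfra and Pdgfrb, whose summed normalized counts were 268, 385 and 567 in TTFM tumours, against 349, 399 and 217 in Saline tumours. Pdgfra had 201, 284 and 488 in TTFM, against 292, 279 and 179 in Saline tumours, with TTFM replicate 3 highest and Saline replicate 2 below Saline replicate 1. Pdgfrb had 66.8, 100.2 and 78.8 in TTFM, against 56.8, 120.5 and 37.8 in Saline tumours, with Saline replicate 2 highest and Saline replicate 3 lowest. Leukocyte markers were 5 of 10 listed, with sums of 895, 720.2 and 1088 in TTFM, against 1522.5, 859.7 and 1369 in Saline tumours. Of the 4 tested, 2 were above 0 (Il2rb at 1.08 and Csf1r at 0.41 on the log2 scale) and 2 below (Cd14 at -1.73 and Csf3r at -1.66), with a median of -0.63. By edgeR 0 passed the test, and 2 (Cd14 and Csf3r) had an unadjusted p under 0.05, against 6.06% of tested genes. Epithelial markers were 7 of 12, with sums of 11223, 10883 and 6476 in TTFM, against 8077, 9519.6 and 8219.9 in Saline tumours. Cdh1, the epithelial cadherin gene, had 1082 to 1744 normalized counts in TTFM and 1032 to 1662 in Saline tumours. Of cartilage and bone markers 4 of 11 were present, with Sox9 at 142 to 189, Ibsp at 133 to 590.3 and Comp and Chad at the level of Uty. Adipocyte markers were 2 of 6, Pparg and Lep, both under the mean count of 10, and endothelial markers 2 of 8, with sums of 289.7 to 426 in TTFM and 338 to 383 in Saline tumours. No listed marker on the panel was at 0, where the lowest value of the table is 1. The part of these cells in the collagen differences was not tested.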

How the data were processed

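Total RNA of 6 tumours (Qiagen RNeasy Kit, per the labels' protocols) was measured for 750 genes. The deposited table was read as whole-number counts per gene. This reading rests on the values: whole numbers, with totals that differ between tumours. The labels name no platform, counting step or scaling before deposit, and zeros may have been raised to 1.

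Genes averaging 10 or more counts were fitted with edgeR 4.0.16 in R 4.3.3 (TMM factors, glmQLFit, glmQLFTest, group as the only term), and p-values were adjusted over all 627 by Benjamini-Hochberg, with a threshold of 0.05. The SE is the log2 fold change over the square root of F. Fold changes are TTFM over Saline. The fit was run on simulated counts with the same dispersion for every gene. That run does not speak to genes that vary as widely between tumours as the fibrillar collagens. Log2 values use a pseudocount of 1. Ratios of partner chains were tested over tumours by exact permutation, two-sided. Alternatives were other scalings, filters, a floor of 20, DESeq2 1.42.0, limma 3.58.1, a replicate block and each tumour left out. No label pairs the tumours beyond the numbers in the titles. Deviations of same-numbered tumours correlated at -0.23, 0.44 and 0.26 across genes, and those of differently numbered tumours at -0.42 to 0.39. So few correlations cannot decide whether the tumours were paired. The fibrillar genes and the 12 gene lists were chosen with earlier results of these data known. Named genes are all members, up to 4 genes of smallest p in a list described, and the 8 genes nearest in pattern (3 for each other member) and the 2 of smallest p each way; Fn1, Tgfb1 and other list genes outside this rule were named for their role after values were seen. Gene symbols are those of the table, and promoters come from RefSeq. A result that the naming rule takes is not reported here.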

Additional observations from a re-analysis of the deposited data

How the results depend on the processing

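Fibrillar collagen genes past the threshold numbered 0 under every scaling, filter and tool run, with the floor, with the replicate block and without any 1 tumour. Over all genes the number was 0 except for 1 with DESeq2 and 14 without Saline replicate 2, so 0 to 14 with 1 tumour left out. The median log2 fold change of the 10 genes was 0.17, and ran from -0.28 to 1.63 with 1 tumour left out, the highest without Saline replicate 2. It was 0.82 with limma and 0.71 with the replicate block, 0.33 with a mean count of at least 50, which kept 5 members, and 0.16 to 0.24 under the other settings. With 1 tumour left out Col1a1 ran from -0.35 to 1.59, Col1a2 from -0.14 to 2.25, Col3a1 from -0.18 to 2.57, Col5a1 from -0.25 to 1.68, Col11a1 from -1.14 to 2.48 and Col27a1 from -0.040 to 0.84, so their signs turned. Col11a1 also turned with limma (0.85), which averages log2 values, and with the replicate block (0.61), where the cause was not tested. The sign of Col2a1, Col5a2, Col11a2 and Col24a1 held in all settings run, the filter of a mean count of 50 keeping only Col5a2 of these. With 1 tumour left out the type I log2 ratio difference ran from -0.70 to 0.016, that of type V from -0.90 to 0.10 and that of type XI from 0.043 to 3.98. Medians of the other lists, with 1 tumour left out, ran from -1.20 to -0.13 for other collagens, 0.029 to 0.97 for proteases, -0.13 to 0.37 for non-collagen matrix and -0.088 to 0.21 for TGF-beta and PDGF genes. Counts under 20 in Col11a1 and Col11a2 limit how far their low ends can be read.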
